A study of Mus musculus with 6 samples.

Results

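The genes described here encode enzymes that cut the extracellular matrix of mouse Achilles tendon and the proteins that hold such enzymes in check. They were taken by name from the RNA-seq count table. The list holds 39 of the 54189 features of that table: 14 matrix metalloproteases (MMPs), 10 ADAMTS proteases, 3 HTRA serine proteases, 3 cathepsins, the plasminogen activators Plat and Plau, the inhibitors Timp1 to Timp4 and Reck, and the serpins Serpine2 and Serpinf1. RNA came from the Achilles tendon of 1 mouse per genotype at 4 weeks of age. The Control mouse was Dicer f/f, with both Dicer alleles floxed and no Cre. The ScxHt mouse was ScxCre/+ Knock In:Dicer +/+, and the Dicer conditional knockout (Dicer cKO) mouse was ScxCre/+ Knock In:Dicer f/f. The Cre is driven by the endogenous Scleraxis (Scx) promoter and takes the place of 1 Scx allele in both of these mice. By the paper, this Cre acts mainly where Scx stays expressed, as in tendon and ligament. Dicer in the other cells of the sample was not measured separately. By real-time PCR in more mice, the paper found Dicer and miR-135a significantly lower in Dicer cKO than in Control tendon. The paper saw no dramatic fall of Dicer or of most miRNAs, and proposes that this Cre works with low efficiency and in a mosaic. Tendon cells of Dicer cKO may therefore keep Dicer in part. By genotype, Control and ScxHt differ in the Scx allele and in the floxed Dicer alleles.

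Tendon matrix is laid down as collagen fibrils and proteoglycans and is trimmed by proteases that work outside the cell. Collagenases and membrane-bound MMPs cut fibrillar collagen, gelatinases take up the unfolded chains, and ADAMTS enzymes clip large proteoglycans such as aggrecan and versican. The tissue inhibitors of metalloproteases (TIMPs) block the zinc site of these enzymes, Reck does so at the cell membrane, and cathepsin K digests collagen in acid compartments.

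The libraries held 14959399 to 16244232 counts, of which the 39 genes took 0.541% in Control, 0.663% in ScxHt and 0.410% in Dicer cKO. Dicer1 itself had 1919 reads in Control, 2025 in ScxHt and 1621 in Dicer cKO, counted over the whole gene and so including exons outside the floxed part. All 12 tendon fibroblast markers checked (Tnmd, Scx, Mkx, Fmod and others) were present in each library. Their summed level was 137509, 121359 and 79271 CPM (counts scaled to library size) in Control, ScxHt and Dicer cKO, and most of each sum was Col1a1 and Col1a2. Of the 12, 8 were above Control in ScxHt and below it in Dicer cKO, all but Col1a1, Col1a2, Scx and Egr1. The Dicer cKO-to-Control ratios of normalized counts were 0.948 for Tnmd, 0.365 for Scx, 0.913 for Mkx and 0.455 for Fmod. RNA of other cell types differed between the libraries as well. The 20 skeletal muscle markers summed to 66104, 37286 and 113933 CPM in the same order, the 12 macrophage markers to 271, 503 and 213 CPM, the 8 endothelial markers to 709, 521 and 821 CPM and the 8 Schwann cell markers to 233, 304 and 717 CPM. Their part in the differences below was not tested. In a piece of whole tissue, fewer cells of a type cannot be told apart from less RNA per cell.

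Serpinf1, Timp2 and Timp3 were the most abundant transcripts of the list in every library. Levels of different genes are compared here only as RPKM (reads scaled to gene length and library size), as deposited. Serpinf1 was at 422 RPKM in Control, 644 in ScxHt and 309 in Dicer cKO. It encodes pigment epithelium-derived factor, a collagen-binding serpin that is not known to inhibit proteases. Timp2 followed at 186 RPKM in Control, 209 in ScxHt and 99.8 in Dicer cKO, and Timp3 at 182, 198 and 132 RPKM. Ctsk, the gene of the collagen-degrading cathepsin K, was the most abundant protease gene, with 94.5 RPKM in Control, 158 in ScxHt and 80.9 in Dicer cKO. Htra1 came next at 71.0, 101 and 60.5 RPKM. Ctsb (42.5 RPKM in Control) and Mmp2 (40.2) were the only other proteases above 30 RPKM in the Control library.

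**Figure D1:**
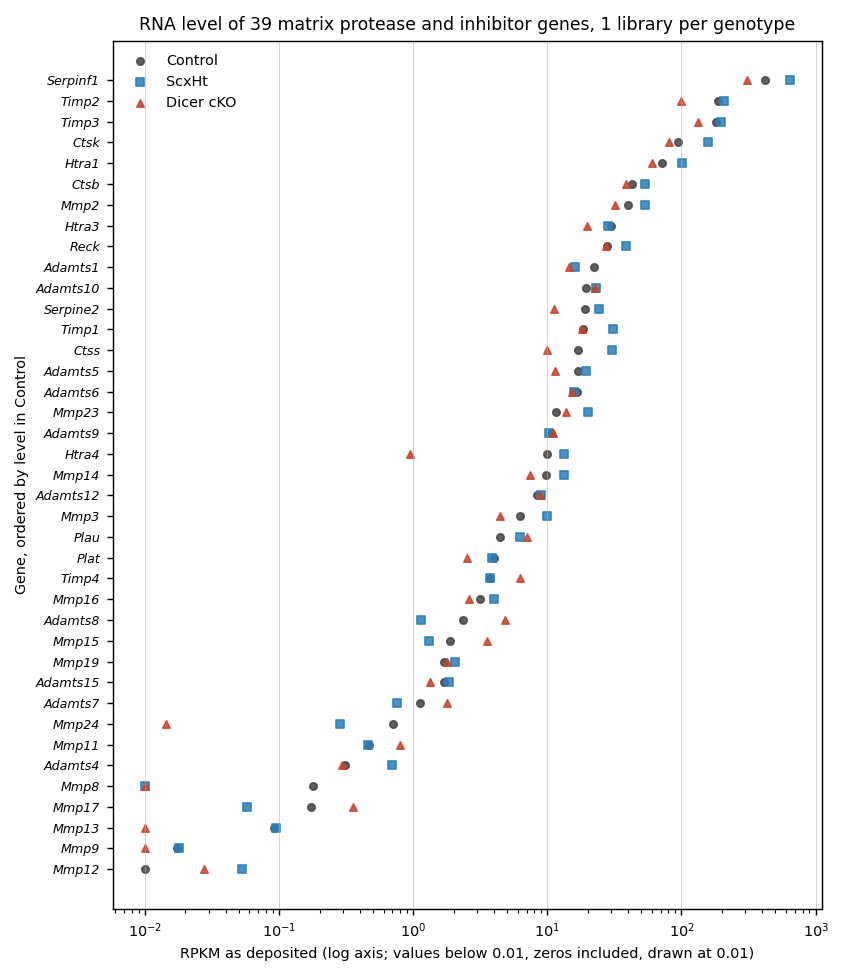
RPKM (horizontal log axis) of the 39 genes (vertical axis, ordered by Control) in the Control (circles), ScxHt (squares) and Dicer cKO (triangles) libraries, 1 library per genotype with no error bar. Serpinf1, Timp2 and Timp3 are at the top in all 3 libraries, and the Dicer cKO points of Htra4 and Mmp24 lie far to the left of the other libraries.

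Between the highest and the lowest gene, levels spanned more than 4 orders of magnitude on the RPKM scale. At 10 RPKM or more were 18 genes in Control, 20 in ScxHt and 17 in Dicer cKO, and 8 genes stayed below 1 RPKM in all 3 libraries. Summed over the 39 genes, the level was 1307 RPKM in Control, 1746 in ScxHt and 981 in Dicer cKO. The 7 TIMP, Reck and serpin genes made up 65.7% of this sum in Control, 65.8% in ScxHt and 61.5% in Dicer cKO. That share rests on Serpinf1: without it the other 6 genes summed to 436 RPKM in Control, 504 in ScxHt and 294 in Dicer cKO, below the 32 protease genes at 449, 598 and 378 RPKM. The 5 TIMP and Reck genes alone summed to 417 RPKM in Control, 480 in ScxHt and 283 in Dicer cKO, and Timp2 and Timp3 held most of each of these sums. The 3 cathepsins summed to 154 RPKM in Control, 242 in ScxHt and 129 in Dicer cKO.

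**Figure D2:**
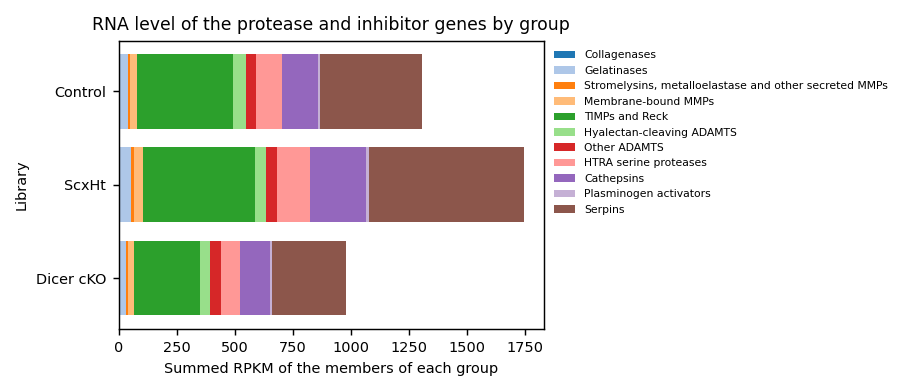
Summed RPKM (horizontal axis, linear from 0) of the protease and inhibitor genes in each library (rows), stacked by group of genes, 1 library per genotype. The bar of ScxHt reaches 1746 RPKM and that of Dicer cKO 981 RPKM, and serpins with TIMPs and Reck fill most of each bar.

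Comparison of the Dicer cKO with the Control library covers 2 changes at once. These are the deletion of Dicer in tendon cells, which may be partial, and the Cre in place of 1 Scx allele, which Control lacks. Dicer1 reads over the whole gene had a ratio of 0.877 (0.821 to 0.938). More of the protease and inhibitor genes were lower than higher in Dicer cKO, most of them by modest amounts, and of the genes tested, Htra4 and Timp2 had the lowest ratios and Adamts8 and Mmp15 the highest. Counts were divided by size factors of the 2 libraries, and 31 of the 39 genes passed the minimum mean normalized count of 50 in each of the 3 comparisons. The limits of the study were kept: a gene is called lower below a ratio of 0.60 and higher above an upper limit that rounds to 1.7. Each ratio is given with a 95% exact counting interval (Clopper-Pearson), which covers the sampling of reads and not the spread between mice, which 1 library per genotype leaves unknown. No p-value can be given.

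Of the 31 genes, 5 were lower (Htra4, Timp2, Ctss, Serpine2 and Plat) and 2 were higher (Adamts8 and Mmp15) in Dicer cKO than in Control. Over all 13504 genes tested, 4.17% were lower and 3.87% were higher, or 8.04% in either direction. The ratio was below 1 for 22 of the 31, against 54.1% of all genes, and the whole interval lay below 1 for 19, against 28.4%. The whole interval lay above 1 for 6 genes, against 21.5% of all genes. A counting interval is narrower for a gene with more reads, so shares of whole intervals depend on read number too. In none of the comparisons were the members and all genes matched for it. It lay wholly beyond the lower limit for Htra4 and Timp2, against 1.36% of all genes, and beyond the upper limit for 0 members, against 1.21%. Over the 31 genes the log2 ratio had a median of -0.30, beside -0.03 for all genes tested and -0.88 for the 12 tendon fibroblast markers. The 7 inhibitor and serpin genes had a median of -0.51 and the 24 protease genes tested one of -0.29.

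The ScxHt-to-Control ratio shows how far a pair of mice that both keep Dicer differed, with 1 Scx allele replaced in one of them. Here 1 gene was higher (Ctss) and 1 lower (Adamts8), against 3.05% and 4.73% of the 13563 genes tested and 7.78% in either direction. The ratio was below 1 for 9 of the 31 genes, against 47.4% of all genes. Intervals wholly above 1 were found for 18 members, against 26.4%, and wholly below 1 for 7, against 23.7%. The interval of Adamts8 lay wholly beyond the lower limit, against 1.99% of all genes, and beyond the upper limit for 0 members, against 0.538%. The ratio was above 1 for 22 of the 31 genes, and their median log2 ratio was 0.17, beside 0.02 for all genes. Between Dicer cKO and ScxHt, 8 genes were lower (Htra4, Ctss, Mmp3, Serpine2, Timp2, Serpinf1, Ctsk and Mmp14) and 4 higher (Adamts8, Mmp15, Adamts7 and Timp4), against 5.68% and 7.67% of 13555 genes and 13.3% in either direction. The ratio was below 1 for 22 of the 31, against 53.9% of all genes, and the whole interval lay below 1 for 20, against 30.5%, and above 1 for 5, against 24.8%. It lay wholly beyond the lower limit for 7 genes, against 2.21%, and beyond the upper limit for 3 genes (Mmp15, Adamts8 and Adamts7), against 4.22%. The median log2 ratio was -0.49, beside -0.03 for all genes. The 3 comparisons share libraries and are not independent of each other. Htra4, Timp2, Ctss and Serpine2 were lower, and Adamts8 and Mmp15 higher, in Dicer cKO against both of the other libraries.

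**Figure D3:**
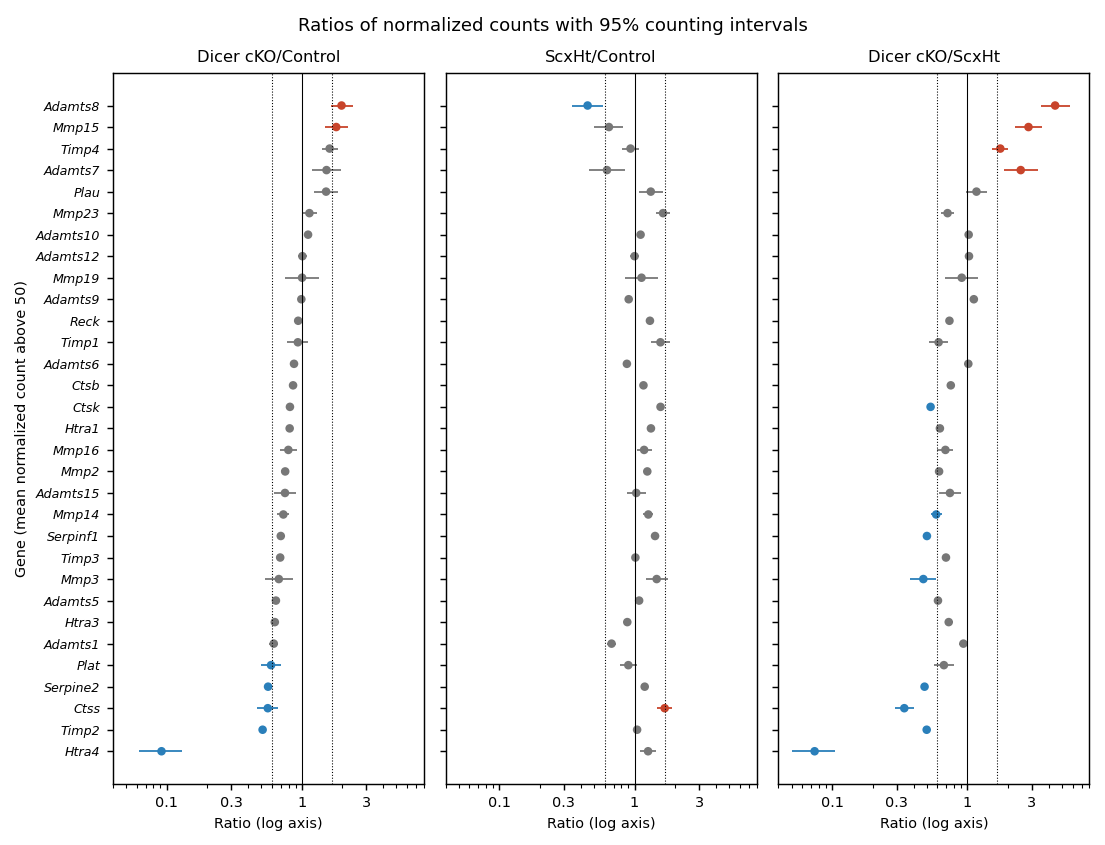
Ratios of normalized counts (horizontal log axes) with 95% counting intervals (lines) for the 31 genes tested (rows, ordered by Dicer cKO/Control) in the 3 comparisons, 1 library per genotype. Dotted lines mark the lower and upper limits, and coloured points lie past them: 5 lower and 2 higher for Dicer cKO/Control, 1 and 1 in ScxHt/Control, and 8 and 4 in the plot of Dicer cKO/ScxHt.

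Soluble collagenase transcripts were nearly absent from all 3 tendons. Mmp8, the collagenase of neutrophil granules, had 7 reads in Control and 0 in the others, and Mmp13, the interstitial collagenase of cartilage and bone, had 4 in Control, 4 in ScxHt and 0 in Dicer cKO. Mmp9, the gelatinase of myeloid cells and osteoclasts, had 1, 1 and 0 reads. Mmp12, the macrophage elastase, had 0 in Control, 6 in ScxHt and 3 in Dicer cKO. None of these genes passed the minimum, and no difference between genotypes is read from so few reads, since a count of 0 allows up to 3 reads. Their counting intervals held 1 except for Mmp8 in Dicer cKO against Control (0 to 0.720) and in ScxHt against Control (0 to 0.665). The other exception was Mmp12 in ScxHt against Control, with an interval from 1.13 upward. Of 10 neutrophil markers, 8 had 3 reads or fewer in every library and 6, among them S100a9, Mpo and Elane, were at 0. The 8 osteoblast markers, of which Bglap and Bglap2 were at 0 in all 3 libraries, summed to 145, 207 and 52.7 CPM in Control, ScxHt and Dicer cKO. Most of that sum was Ibsp, with 2141, 3033 and 583 reads, while Runx2 and Alpl had Dicer cKO-to-Control ratios of 1.09 and 0.864. The 8 chondrocyte markers summed to 484, 659 and 333 CPM.

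Mmp2, the gelatinase made by fibroblasts, was the main soluble MMP of these tendons. It had 2203 reads in Control, 2857 in ScxHt and 1601 in Dicer cKO, so that Dicer cKO was the lowest of the libraries. The Mmp2 ratio, with its 95% counting interval, came to 0.755 (0.707 to 0.805) in Dicer cKO against Control, 1.24 (1.18 to 1.31) in ScxHt against Control and 0.617 (0.580 to 0.657) in Dicer cKO against ScxHt, none of them past the limits. Mmp3, stromelysin 1, which cuts proteoglycans and activates other proMMPs, had 184 reads in Control, 280 in ScxHt and 120 in Dicer cKO. Against ScxHt it was lower in Dicer cKO, at 0.472 (0.378 to 0.587), and against Control its ratio was 0.677 (0.534 to 0.857). Mmp19, of whose exon bases 28.3% are shared with another gene, had 97, 114 and 94 reads in the 3 libraries, and its Dicer cKO-to-Control ratio was 1.01 (0.750 to 1.35). Mmp11, stromelysin 3, had 21 reads in Control, 20 in ScxHt and 33 in Dicer cKO and did not pass the minimum.

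The membrane-bound MMPs went different ways. Mmp14 encodes MT1-MMP, which cuts fibrillar collagen at the cell surface and activates proMMP2 with the help of TIMP2. It had 947 reads in Control, 1250 in ScxHt and 667 in Dicer cKO, the same order as Mmp2. Its ratio was 0.731 (0.661 to 0.808) in Dicer cKO against Control, and it was lower than in ScxHt at 0.588 (0.534 to 0.646). Mmp15, the gene of MT2-MMP on chromosome 8 from 95352268 to 95375080 (GRCm38), had 166 reads in Control, 112 in ScxHt and 288 in Dicer cKO. It was the reverse of Mmp14, with Dicer cKO highest and ScxHt lowest. The ratio was 1.80 (1.48 to 2.19) in Dicer cKO against Control, 0.647 (0.504 to 0.827) in ScxHt against Control and 2.83 (2.27 to 3.56) in Dicer cKO against ScxHt.

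Mmp16, the gene of MT3-MMP, had 442, 543 and 339 reads in Control, ScxHt and Dicer cKO, and a Dicer cKO-to-Control ratio of 0.796 (0.689 to 0.920). Mmp23, which encodes an MMP anchored by its N-terminus, had 438 reads in Control, 743 in ScxHt and 481 in Dicer cKO, and its highest ratio was 1.63 (1.44 to 1.83) in ScxHt against Control. Mmp17 and Mmp24 did not pass the minimum. Mmp17, the gene of the lipid-anchored MT4-MMP, had 19 reads in Control, 6 in ScxHt and 35 in Dicer cKO, with ratios of 1.91 (1.06 to 3.54) in Dicer cKO against Control and 6.43 (2.675 to 18.7) in Dicer cKO against ScxHt. Mmp24, the gene of MT5-MMP, an enzyme known from neurons, had 54 reads in Control, 21 in ScxHt and a single 1 in Dicer cKO. Its ratio was 0.0192 (0.000478 to 0.112) in Dicer cKO against Control and 0.373 (0.214 to 0.627) in ScxHt against Control. Of its exon bases, 13.6% overlap BC029722 on the opposite strand, and without a stated strand setting reads from the 2 genes cannot be told apart.

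Among the metalloprotease inhibitors, Timp2 fell in Dicer cKO and Timp1, Timp3 and Reck stayed between the limits. Timp2, on chromosome 11 from 118301069 to 118355740 on the minus strand, had 11755 reads in Control, 12815 in ScxHt and 5815 in Dicer cKO. The Control and ScxHt libraries were close to each other and Dicer cKO stood apart. Its ratio was 0.514 (0.498 to 0.530) in Dicer cKO against Control, 1.04 (1.02 to 1.07) in ScxHt against Control and 0.50 (0.485 to 0.516) in Dicer cKO against ScxHt. Its whole interval lay below 0.60 in both comparisons with Dicer cKO, and it was lower under all 5 other scalings of the counts. TIMP2 is also the adaptor through which MT1-MMP binds proMMP2, so the products of Timp2, Mmp14 and Mmp2 meet in 1 activation complex. The normalized count of each was lowest in Dicer cKO, as it was for 22 of the 35 members above 30 reads in at least 1 library. The share of all genes lowest in Dicer cKO was not counted. Of these 3 genes only Timp2 was past the limit against Control.

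Timp3 encodes the TIMP that is bound to the matrix and blocks ADAMTS enzymes as well as MMPs. It had 24060 reads in Control, 25481 in ScxHt and 16058 in Dicer cKO, and its ratio was 0.693 (0.679 to 0.707) in Dicer cKO against Control and 1.01 (0.997 to 1.03) in ScxHt against Control. Timp1 had 265, 430 and 239 reads, highest in ScxHt, with a ScxHt-to-Control ratio of 1.55 (1.33 to 1.82) and a Dicer cKO-to-Control ratio of 0.937 (0.783 to 1.12). Timp4 was the only TIMP with its highest count in Dicer cKO, at 356 reads in Control, 347 in ScxHt and 552 in Dicer cKO. It passed the limit against ScxHt, at 1.75 (1.53 to 2.01), and not against Control, at 1.61 (1.41 to 1.84). Reck, the gene of a lipid-anchored inhibitor of MMPs, had 2144, 2909 and 1945 reads and a Dicer cKO-to-Control ratio of 0.942 (0.886 to 1.0). Of the exon bases of Timp3, 21.3% overlap Syn3 on the opposite strand.

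Among the 6 ADAMTS genes whose enzymes cut large proteoglycans, Adamts8 was higher and Adamts1 and Adamts5 had ratios below 1 in Dicer cKO. Adamts8, on chromosome 9 from 30942562 to 30963838, had 177 reads in Control, 83 in ScxHt and 336 in Dicer cKO. Dicer cKO was highest and ScxHt lowest, as for Mmp15. Of its exon bases, 10.6% overlap Gm29724 on the opposite strand. Its ratio was 1.97 (1.64 to 2.38) in Dicer cKO against Control, 0.449 (0.342 to 0.586) in ScxHt against Control and 4.46 (3.50 to 5.74) in Dicer cKO against ScxHt. The same order, with ScxHt below and Dicer cKO above Control, was seen for 15 of 20 skeletal muscle markers and 5 of 8 endothelial markers. The exceptions were Mybpc2, Mylpf, Myh4, Pvalb and Actn3, which were above Control in ScxHt as well, and Emcn, Tie1 and Esam, which were below Control in Dicer cKO as well. Adamts5, the gene of the main aggrecanase of mouse cartilage, had 2211 reads in Control, 2495 in ScxHt and 1372 in Dicer cKO. Its ratio was 0.644 (0.602 to 0.690) in Dicer cKO against Control and 1.08 (1.02 to 1.15) in ScxHt against Control.

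Adamts1 differed from Adamts5 in that ScxHt was also below Control. It had 1911 reads in Control, 1348 in ScxHt and 1143 in Dicer cKO, with ratios of 0.621 (0.577 to 0.669) in Dicer cKO against Control and 0.676 (0.630 to 0.725) in ScxHt against Control. Adamts9 had 2580, 2437 and 2469 reads, the counts of the 3 libraries lying close together, and a Dicer cKO-to-Control ratio of 0.994 (0.940 to 1.05). Adamts15 had 283, 304 and 205 reads and a Dicer cKO-to-Control ratio of 0.752 (0.625 to 0.904). Adamts4, an aggrecanase gene induced in inflamed tissue, had 24 reads in Control, 53 in ScxHt and 21 in Dicer cKO and did not pass the minimum.

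The other 4 ADAMTS genes form related pairs. Adamts6 and Adamts10, whose enzymes act on fibrillin microfibrils, had 2106, 1929 and 1779 reads and 1709, 1977 and 1834 reads in Control, ScxHt and Dicer cKO, with Dicer cKO-to-Control ratios of 0.877 (0.823 to 0.935) and 1.11 (1.04 to 1.19). Adamts7 and Adamts12 encode proteases that cut cartilage oligomeric matrix protein. Adamts12 had 1487, 1553 and 1449 reads and a Dicer cKO-to-Control ratio of 1.01 (0.941 to 1.09). Adamts7 had 115, 75 and 169 reads, highest in Dicer cKO and lowest in ScxHt, with a ratio of 1.53 (1.20 to 1.95) in Dicer cKO against Control and 2.48 (1.88 to 3.30) in Dicer cKO against ScxHt, which passed the limit.

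Htra4 had the lowest Dicer cKO-to-Control ratio of the 31 genes. The HTRA genes encode trypsin-like serine proteases that cells secrete and that cut fibronectin, proteoglycans and growth factor regulators. Htra4, on chromosome 8 from 25024929 to 25038962 on the minus strand, had 385 reads in Control, 506 in ScxHt and 34 in Dicer cKO. Its RPKM went from 9.86 in Control and 13.3 in ScxHt to 0.946 in Dicer cKO, and from rank 19 of the 39 genes in Control to rank 31. The ratio was 0.0917 (0.0626 to 0.130) in Dicer cKO against Control, 1.26 (1.10 to 1.44) in ScxHt against Control and 0.0740 (0.0507 to 0.105) in Dicer cKO against ScxHt. Of the exon bases of Htra4, 32.9% overlap Gm16933 on the opposite strand in GENCODE vM21, and reads of both genes cannot be told apart without a stated strand setting. Its relatives were less far from 1. Htra1 had 3320, 4582 and 2604 reads and a Dicer cKO-to-Control ratio of 0.815 (0.773 to 0.858), and Htra3 had 2149, 1982 and 1309 reads and one of 0.633 (0.590 to 0.678).

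All 3 cathepsins were highest in ScxHt and lowest in Dicer cKO. Ctss, the gene of the cathepsin of macrophages and dendritic cells, had 372 reads in Control, 649 in ScxHt and 201 in Dicer cKO. Its ratio was 0.561 (0.470 to 0.668) in Dicer cKO against Control, 1.672 (1.47 to 1.90) in ScxHt against Control, just past the upper limit, and 0.341 (0.290 to 0.400) in Dicer cKO against ScxHt. The same order of libraries was seen for 11 of 12 macrophage markers, all but Fcgr1. It was also seen for 8 of 12 tendon fibroblast markers and 5 of 8 chondrocyte markers, so it is not particular to macrophage genes. Of the 35 members above 30 reads in at least 1 library, 20 were highest in ScxHt and 22 lowest in Dicer cKO. These orders were not counted over all genes, so they are not read as a trait of the members. All 12 macrophage markers were detected, and 10 of 10 tested were lower in Dicer cKO against ScxHt, with a median log2 ratio of -1.17. Against Control, 2 of 10 were lower in Dicer cKO, with a median of -0.42. Ctsk had 2322, 3774 and 1830 reads, with ratios of 0.818 (0.769 to 0.871) in Dicer cKO against Control, 1.56 (1.48 to 1.64) in ScxHt against Control and 0.534 (0.505 to 0.565) in Dicer cKO against ScxHt. The 8 osteoclast markers summed to 124, 129 and 97.4 CPM in Control, ScxHt and Dicer cKO. Most of that sum was Nfatc1, with 1649, 1552 and 1147 reads and a ScxHt-to-Control ratio of 0.902 (0.841 to 0.967). The other markers past the minimum, Tnfrsf11a and Acp5, had ScxHt-to-Control ratios of 1.43 (1.13 to 1.82) and 1.13 (0.942 to 1.36). Ctsb, a lysosomal cathepsin of most cells, had 4174, 5070 and 3469 reads and a Dicer cKO-to-Control ratio of 0.863 (0.825 to 0.903).

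In the plasminogen system, Plat was lower and Plau was not. Plat, the gene of tissue plasminogen activator, had 408 reads in Control, 383 in ScxHt and 233 in Dicer cKO. Its Dicer cKO-to-Control ratio was 0.593 (0.503 to 0.698), and it was above 0.60 under TMM scaling (0.603), total-count scaling (0.620) and total counts without features above 1% of a library (0.604). Plau, the gene of urokinase, had 170 reads in Control, 234 in ScxHt and 248 in Dicer cKO, with a Dicer cKO-to-Control ratio of 1.51 (1.24 to 1.85) and a ScxHt-to-Control ratio of 1.32 (1.08 to 1.62). Serpine2 encodes protease nexin 1, an inhibitor of thrombin, urokinase and tissue plasminogen activator. It had 2566 reads in Control, 3184 in ScxHt and 1393 in Dicer cKO, and fell to ratios of 0.564 (0.528 to 0.602) in Dicer cKO against Control and 0.482 (0.452 to 0.514) in Dicer cKO against ScxHt. Serpinf1 had 16177, 23943 and 10906 reads. It was lower in Dicer cKO against ScxHt, at 0.502 (0.491 to 0.513), and had a Dicer cKO-to-Control ratio of 0.700 (0.683 to 0.717).

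**Figure D4:**
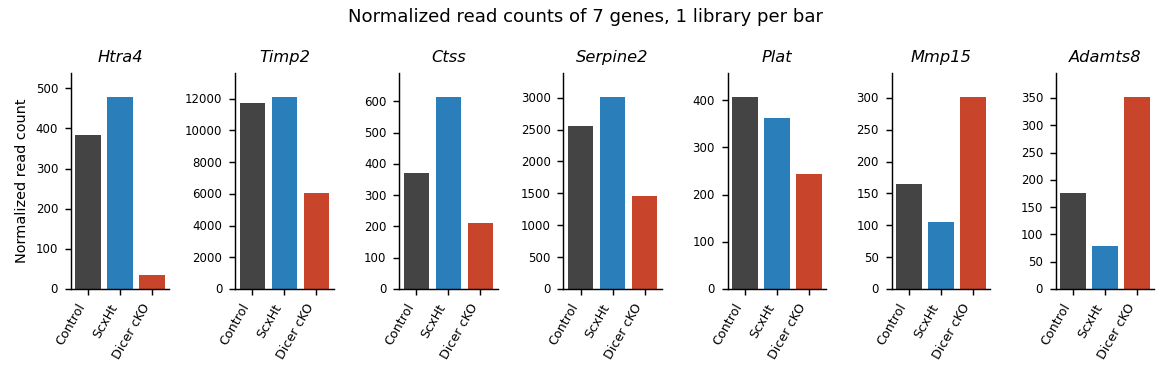
Read counts (vertical axes, linear from 0) normalized with size factors over all 3 libraries for the 7 genes past the limits for Dicer cKO/Control, 1 bar per library and no error bar. Htra4, Timp2, Ctss, Serpine2 and Plat are lowest and Mmp15 and Adamts8 highest in Dicer cKO, and ScxHt is on the other side of Control from Dicer cKO for all but Plat.

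The muscle markers took a larger share of the Dicer cKO library than of the others, and the calls depended on the scaling. With total counts from which mitochondrial genes and the 20 muscle genes were left out, Ctss, Serpine2 and Plat were no longer below 0.60 in Dicer cKO against Control (0.627, 0.630 and 0.663), 2 genes were lower and 5 higher, and the median log2 ratio was -0.14, beside 0.13 for all genes. Htra4, Timp2, Adamts8 and Mmp15 were past the limits under all 5 other scalings.

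Proteases and regulators outside the list of 39 were looked at through 7 lists of 86 genes, of which 55 were tested in Dicer cKO against Control. Among them 5 were lower and 1 higher, beside 4.17% and 3.87% of all genes tested. Pcolce2, an enhancer of procollagen C-proteinase, had 3186 reads in Control, 3679 in ScxHt and 1339 in Dicer cKO, and ratios of 0.436 (0.409 to 0.465) against Control and 0.401 (0.376 to 0.427) against ScxHt. Adamts2, the gene of the procollagen N-proteinase, had 5270, 5172 and 2666 reads and ratios of 0.525 (0.501 to 0.550) and 0.568 (0.542 to 0.595). Adamts20 was higher in Dicer cKO against both, with 507, 231 and 903 reads and ratios of 1.85 (1.66 to 2.07) and 4.31 (3.72 to 5.0), the same order of libraries as Adamts8. The list of procollagen and pro-matrix processing genes had 2 of 7 genes lower and a median log2 ratio of -0.44, and the list of other ADAMTS and ADAMTS-like genes had 1 of 11 higher, 1 lower and a median of -0.27, beside a median of -0.03 over all genes tested.

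None of 8 ADAM sheddases, of 9 other cathepsins and cystatins and of 12 other surface and secreted proteases and inhibitors passed a limit in Dicer cKO against Control, with median log2 ratios of 0.04, -0.21 and -0.16. Of the 9 other MMP genes, 5 were at 0 reads in all 3 libraries and 1 was tested, and it did not pass a limit either. For Dicer cKO/ScxHt, 9 of the 56 genes tested were lower and 5 higher, beside 5.68% and 7.67% of all genes. In ScxHt against Control 4 were lower and 3 higher, beside 4.73% and 3.05%.

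Since Dicer makes mature miRNAs, the members' 3' UTRs were searched for the seeds of 8 miRNAs. A seed is the stretch of bases 2 to 8 through which a miRNA pairs with its target. The mature sequences below are those of RefSeq (GRCm38.p6), with the seed in capitals, shown because 8-base matches to them lie in members with more than 1000 reads in each library.
miR-21a-5p: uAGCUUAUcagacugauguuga
miR-181a-5p: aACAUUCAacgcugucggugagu
miR-29b-3p: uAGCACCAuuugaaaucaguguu
miR-27b-3p: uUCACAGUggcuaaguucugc
miR-24-3p: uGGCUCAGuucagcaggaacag
miR-9-5p: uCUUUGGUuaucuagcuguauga
miR-135a-5p: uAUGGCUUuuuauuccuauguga

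In small RNA-seq, reads were counted by locus, so a mature miRNA and the other product of its precursor were not separated. Reads of loci of all 8 miRNAs were present in Dicer cKO tendon, and those of the Mir135a loci had the lowest ratios against Control. Mir135a-1 had 38 reads in Control, 13 in ScxHt and 16 in Dicer cKO, with a ratio of 0.483 (0.251 to 0.886) in Dicer cKO against Control. The other locus, Mir135a-2, had 41, 13 and 16 reads and a ratio of 0.447 (0.234 to 0.814). Both were below 0.60 in ScxHt against Control too, at 0.385 (0.188 to 0.740) and 0.357 (0.176 to 0.680), on few reads. Mir27b had 38521 reads in Control, 37972 in ScxHt and 27336 in Dicer cKO, and a ratio of 0.813 (0.801 to 0.826) in Dicer cKO against Control. Mir21a had 9908, 6384 and 6275 reads and a ratio of 0.726 (0.703 to 0.749) against Control and 0.983 (0.949 to 1.02) against ScxHt. Mir181a-1 had 7970, 5899 and 4819 reads and a Dicer cKO-to-Control ratio of 0.693 (0.668 to 0.718). Mir24-1 had 32083, 36750 and 30239 reads and a ratio of 1.08 (1.06 to 1.10), and Mir29b-1 had 447, 485 and 373 reads and one of 0.956 (0.831 to 1.10). Mir9-1 had 95, 77 and 98 reads and a ratio of 1.18 (0.882 to 1.58), and Mir17 had 99, 96 and 104 reads and one of 1.20 (0.905 to 1.60). Apart from the Mir135a loci, none of these ratios was past the limits. Loci of the same miRNA had equal or nearly equal counts: Mir9-2 and Mir9-3 had the counts of Mir9-1, and Mir24-2 had 32029 reads in Control beside 32083 for Mir24-1. The same reads may thus be counted at more than 1 locus, and the Mir135a loci are not independent measurements.

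A 7-base match to the seed of miR-21a-5p (ATAAGCT) lies in the 3' UTR of Adamts6, Reck, Timp2 and Timp3, 4 of the 31 members tested (12.9%), and in 8.52% of the 11057 tested genes with an annotated 3' UTR. For miR-181a-5p (TGAATGT) it was 9 of 31 (29.0%) against 19.9%, for miR-29b-3p (TGGTGCT) 7 of 31 (22.6%) against 16.9%, for miR-24-3p (CTGAGCC) 5 of 31 (16.1%) against 20.01% and for miR-27b-3p (ACTGTGA) 2 of 31 (6.45%) against 18.5%. For the others the shares were, for miR-9-5p (ACCAAAG), 6 of 31 (19.4%) against 15.1%, for miR-17-5p (GCACTTT) 4 of 31 (12.9%) against 15.7% and for miR-135a-5p (AAGCCAT) 6 of 31 (19.4%) against 15.7%. Only the strand of the transcript was searched, in the longest 3' UTR of a protein-coding transcript of GENCODE vM21. The shares lie on both sides of those of all genes, and a match of letters is no proof of a working site.

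The following 8-base matches (the 7 bases and an A, in capitals) to these 7 miRNAs are given 5' to 3' on the transcript strand with their place in GRCm38, for every member with more than 1000 reads in each library.
Timp3, miR-21a-5p, chr10:86348227-86348234, plus strand: agctttcaATAAGCTAtagctt
Timp3, miR-181a-5p, chr10:86349416-86349423, plus strand: atattccgTGAATGTAtattgt
Reck, miR-21a-5p, chr4:43944407-43944414, plus strand: agtttgaaATAAGCTAttaatg
Adamts5, miR-27b-3p, chr16:85861022-85861029, minus strand: atgtgcctACTGTGAAagattt
Adamts5, miR-181a-5p, chr16:85862346-85862353, minus strand: cacaatgaTGAATGTAgaatcg
Adamts6, miR-29b-3p, chr13:104495696-104495703, plus strand: agttaactTGGTGCTAatgtgc
Adamts12, miR-29b-3p, chr15:11347277-11347284, plus strand: cagcagaaTGGTGCTAttgaac
Adamts12, miR-29b-3p, chr15:11347292-11347299, plus strand: attgaactTGGTGCTAatacct
Adamts12, miR-29b-3p, chr15:11348913-11348920, plus strand: gagcttctTGGTGCTAtaacca
Adamts9, miR-29b-3p, chr6:92773489-92773496, minus strand: tgctgcctTGGTGCTAatatta
Adamts6, miR-9-5p, chr13:104494920-104494927, plus strand: ggataacaACCAAAGAagaaaa
Adamts9, miR-9-5p, chr6:92772837-92772844, minus strand: tttccaagACCAAAGAgattag
Adamts9, miR-135a-5p, chr6:92774555-92774562, minus strand: tgaagaggAAGCCATAggagac
Ctsb, miR-24-3p, chr14:63144141-63144148, plus strand: cctcaaacCTGAGCCAgtatga
Ctsb, miR-24-3p, chr14:63144957-63144964, plus strand: ctcaggtgCTGAGCCAtctctc
Htra3, miR-24-3p, chr5:35652243-35652250, minus strand: tgcaaggaCTGAGCCActtcac
The genes with these sites had Dicer cKO-to-Control ratios of 0.693 (Timp3), 0.942 (Reck), 0.644 (Adamts5), 0.877 (Adamts6), 1.01 (Adamts12), 0.994 (Adamts9), 0.863 (Ctsb) and 0.633 (Htra3), and none was past a limit. Of the 7 genes past a limit in Dicer cKO against Control, Timp2 holds 7-base matches to 5 of the 8 miRNAs searched. Plat and Mmp15 hold a match to miR-9-5p only. No seed match was found in the 3' UTR of Htra4, Ctss, Serpine2 or Adamts8. How many of the 8 seeds a gene matches was not counted over all genes.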

How the data were processed

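RNA-seq and small RNA-seq were analysed for 1 library per genotype. According to the study's methods, the authors removed adaptors, mapped reads to GRCm38-mm10 with Tophat and bowtie2 and assigned raw counts with HTSeq; tool versions, annotation release and strand setting are not given in the sources used here. The deposited counts were used for all ratios, and the RPKM values the authors deposited only to compare levels between genes. In each library 605 to 763 genes have an RPKM above 0 beside 0 counts. Ratios were computed from counts divided by DESeq2 1.42.0 size factors (R 4.3.3) of the 2 libraries, for each kind of RNA separately, with a minimum mean normalized count of 50 in RNA-seq and none for the miRNA loci named, and called higher above 1.67 and lower below 0.60. Intervals were computed with scipy 1.17.1 under Python 3.11.15, tables handled with pandas 2.3.3 and numpy 2.4.6, and plots made in matplotlib 3.10.9. Positions, overlaps and 3' UTRs are from GENCODE vM21, in which all 39 genes were found by symbol, and miRNA sequences from RefSeq (GRCm38.p6). The seeds of 8 miRNAs were searched, and miR-140-5p and miR-143-3p were not analysed here. Ratios and intervals were tested on simulated counts. Other scalings included edgeR 4.0.16 TMM and total counts. All 39 genes are named by rule, and of the other lists those past a limit against both Control and ScxHt. The members and lists were chosen with earlier results of these data known. The result of 1 of the other lists is not reported here.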

Additional observations from a re-analysis of the deposited data

How the results depend on the processing

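No paired analysis was possible because each genotype has 1 library, and for the same reason none could be left out. The median log2 ratio of the 31 genes kept its sign in all 3 comparisons under the alternatives that can move it (scaling, minimum and pseudocount). It moved most for Dicer cKO/Control with total counts without mitochondrial and muscle genes, to -0.14. That is outside the counting interval of the gene at the median (Htra1), which is not an error of the median itself. There 5 genes were higher and 2 lower, and the median of all genes shifted from -0.03 to 0.13. For Dicer cKO/Control, 4 were higher and 9 lower with no minimum mean count, 0 and 1 at ratios of 2 and 0.5, 5 and 8 at 1.5 and 0.67, and 0 and 2 with the whole interval past the limit. For ScxHt/Control, the single higher gene (Ctss) became 0 with TMM scaling, with size factors over all 3 libraries, at a ratio of 2 and with the whole interval, and 4 with total counts, which moved the median of all genes from 0.02 to 0.12. It was 2 higher and 3 lower at a minimum of 10, 0 lower with the higher minimum (4 times the usual one), 3 and 4 with no minimum, and 4 and 3 at 1.5 and 0.67. For Dicer cKO/ScxHt, 13 were lower with no minimum and 5 at a ratio of 0.5, and with total counts 12 in place of 8. Over all genes, no minimum raised the Dicer cKO/Control counts from 523 higher and 563 lower to 5392 and 5495, a minimum of 10 to 1563 and 1434 and ratios of 1.5 and 0.67 to 914 and 1002; the higher minimum gave 160 and 239, ratios of 2 and 0.5 gave 215 and 216, the whole interval 164 and 184, and leaving out mitochondrial and muscle genes 945 and 306. No call of a named gene changed direction. The 8 genes below the minimum were not called by choice of that minimum: at a minimum of 10, Mmp24 was lower (6 genes in all) and Mmp17 higher (3 genes) for Dicer cKO/Control. Without replicates a difference between mice cannot be separated from one between genotypes.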
